A study of Caenorhabditis elegans with 2 samples.

Results

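The regions described here are autosomal intergenic candidates outside repeats in a chromatin immunoprecipitation and sequencing (ChIP-seq) experiment on LAG-1 in Caenorhabditis elegans. They were chosen by measured values as well as by location: an entry of the ranking that compares the replicates had to reach a global irreproducible discovery rate (IDR) of at most 0.1. The global IDR of an entry estimates the share of entries ranked at least as high that lack agreement between a pair of ranked lists. The summit also had to lie on an autosome, outside every protein-coding gene and promoter, and over 500 bp from any tRNA, snoRNA or snRNA gene. A promoter was the stretch between 500 bp before and 100 bp past a 5′ end. Around the summit, soft-masked repeats could take up at most 50% of the bases within 100 bp. Of 125458 candidates, 4395 passed the IDR limit, 3318 of these were autosomal, 1149 lay in no protein-coding gene, 835 of those in no promoter and 793 away from small RNA genes. The repeat limit left 566 regions. Signal and IDR of these regions are given as a description, since they chose the members. Across the whole ranking, 3.5% of candidates met the IDR limit that all 566 members meet by definition.

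The study has 1 group of 2 biological replicates. Worms of strain RW12314 carry lag-1 tagged at its own locus by CRISPR with TY1, EGFP and 3xFLAG, so every sample expresses the tagged protein and the series has no untagged or mutant group. Whole worms were grown from starved, synchronised L1 larvae and harvested as young adults at 62 hours. Chromatin was sheared by sonication to a stated range of 200 to 800 bp and precipitated with an antibody to GFP. A whole worm mixes tissues, so a region bound in few cells and a region bound weakly in many cannot be told apart. The files give no read totals, so the depth of each replicate is unknown.

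LAG-1 is the worm member of the CSL family, the DNA-binding proteins that act at the end of the Notch pathway. When a DSL ligand engages the receptor LIN-12 or GLP-1, the receptor's intracellular domain is released, enters the nucleus and forms a complex with LAG-1 and the coactivator SEL-8 at target genes. GLP-1 acts in germline stem cells of the adult, and LIN-12 acts in the development of somatic tissues such as the vulva and uterus. CSL proteins recognise a short element, searched here as GTGGGAA or ATGGGAA on either strand and called the LAG-1 site. Enhancers can lie between genes and act over some distance, and an intergenic summit does not name the gene it acts on.

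The first set of sequences shows the members of highest signal for each pattern of LAG-1 sites. Each is the window of 201 bases centred on the summit, from the RefSeq assembly WBcel235 (ce11), written 5′ to 3′. Capitals mark LAG-1 sites, which read TTCCCAC or TTCCCAT where the site is on the other strand. The window beside ark-1 is the strongest member, with 2 sites. The window beside R05G9.1 is the next in signal with 2 sites. The windows beside C01B10.11 and ugt-20 hold 2 sites in single-copy sequence, and the window beside lpin-1 is the strongest member with 1 site.

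ark-1 / C26H9A.3 (IV:12638254-12638454, plus strand): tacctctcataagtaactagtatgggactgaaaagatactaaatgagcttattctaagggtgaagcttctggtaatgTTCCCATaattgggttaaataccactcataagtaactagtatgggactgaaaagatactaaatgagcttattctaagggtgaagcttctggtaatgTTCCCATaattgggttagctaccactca

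R05G9.1 / R05G9R.1 (II:6507251-6507451, plus strand): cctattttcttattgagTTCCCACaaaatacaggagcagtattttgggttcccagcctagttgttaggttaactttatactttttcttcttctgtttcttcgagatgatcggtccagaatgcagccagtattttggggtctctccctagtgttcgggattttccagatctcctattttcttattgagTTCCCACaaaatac

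C01B10.11 / Y73B6A.1 (IV:6661050-6661250, plus strand): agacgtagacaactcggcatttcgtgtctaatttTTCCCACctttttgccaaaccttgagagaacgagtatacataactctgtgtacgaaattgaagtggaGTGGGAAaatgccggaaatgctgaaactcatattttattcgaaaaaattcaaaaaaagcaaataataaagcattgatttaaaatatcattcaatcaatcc

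ugt-20 / K08B4.7 (IV:6088875-6089075, plus strand): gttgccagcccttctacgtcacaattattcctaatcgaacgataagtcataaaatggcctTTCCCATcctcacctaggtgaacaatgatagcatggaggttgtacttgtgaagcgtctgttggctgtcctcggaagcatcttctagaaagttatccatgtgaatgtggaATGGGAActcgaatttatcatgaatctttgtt

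lpin-1 / letm-1 (V:13657455-13657655, plus strand): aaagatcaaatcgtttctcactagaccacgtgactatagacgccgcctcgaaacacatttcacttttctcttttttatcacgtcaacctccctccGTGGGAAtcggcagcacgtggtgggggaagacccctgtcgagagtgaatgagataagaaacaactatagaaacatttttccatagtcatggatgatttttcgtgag

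The next set shows 4 members of a group of 7 that resemble one another, because the group holds 4 of the 10 members of highest signal. All are turned to the same orientation. Capitals mark bases that lie in a word of 12 bases shared with another of the 6 members compared. The first differs from the other windows shown at many places, and those are shifted against each other over nearly the same stretch. The member next to rpa-2 was not among the 6 compared, and it was 98.03% identical to the first over 152 bp.

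K08F11.1 / fbxb-78 (IV:4725505-4725705, plus strand): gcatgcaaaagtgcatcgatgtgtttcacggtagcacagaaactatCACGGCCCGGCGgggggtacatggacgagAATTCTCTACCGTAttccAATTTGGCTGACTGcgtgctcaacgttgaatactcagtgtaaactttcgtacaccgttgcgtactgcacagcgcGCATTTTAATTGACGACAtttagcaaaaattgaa

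K07D4.2 / gadr-4 (II:4047974-4048174, plus strand): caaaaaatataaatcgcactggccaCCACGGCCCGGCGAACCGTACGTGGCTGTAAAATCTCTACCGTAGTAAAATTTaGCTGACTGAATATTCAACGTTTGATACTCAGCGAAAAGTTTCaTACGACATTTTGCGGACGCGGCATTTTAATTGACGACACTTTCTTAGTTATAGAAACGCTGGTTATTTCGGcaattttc

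Y116A8A.150 / map-2 (IV:16845466-16845666, plus strand): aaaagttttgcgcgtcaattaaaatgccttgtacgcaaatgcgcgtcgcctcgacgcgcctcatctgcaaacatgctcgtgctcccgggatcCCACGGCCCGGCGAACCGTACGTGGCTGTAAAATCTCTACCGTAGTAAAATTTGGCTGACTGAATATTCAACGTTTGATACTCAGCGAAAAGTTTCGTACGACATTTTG

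ari-1.4 / Y73F8A.35 (IV:15530637-15530837, minus strand): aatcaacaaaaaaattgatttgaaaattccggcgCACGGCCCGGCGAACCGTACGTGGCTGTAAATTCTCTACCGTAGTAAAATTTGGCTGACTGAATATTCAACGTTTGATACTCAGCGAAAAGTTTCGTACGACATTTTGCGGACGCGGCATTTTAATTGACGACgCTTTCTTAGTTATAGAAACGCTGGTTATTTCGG

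The last set shows 3 members of high signal that hold 6 copies of GAGAGA each, since this word was more frequent in members than in background candidates. Other members hold more copies. Capitals mark GAGAGA or, on the other strand, TCTCTC.

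srw-60 / nhr-88 (II:2973958-2974158, plus strand): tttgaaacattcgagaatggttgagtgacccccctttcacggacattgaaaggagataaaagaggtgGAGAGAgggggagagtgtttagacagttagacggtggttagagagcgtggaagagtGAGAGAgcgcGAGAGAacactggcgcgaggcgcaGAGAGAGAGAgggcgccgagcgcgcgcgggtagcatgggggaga

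T04C4.3 / fnip-2 (IV:2219554-2219754, plus strand): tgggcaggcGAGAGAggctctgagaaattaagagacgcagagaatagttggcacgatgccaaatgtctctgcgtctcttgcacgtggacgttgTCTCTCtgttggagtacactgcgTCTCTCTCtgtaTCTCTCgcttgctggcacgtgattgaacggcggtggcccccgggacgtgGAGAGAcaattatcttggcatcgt

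idpb-4 / mak-1 (II:8741983-8742183, plus strand): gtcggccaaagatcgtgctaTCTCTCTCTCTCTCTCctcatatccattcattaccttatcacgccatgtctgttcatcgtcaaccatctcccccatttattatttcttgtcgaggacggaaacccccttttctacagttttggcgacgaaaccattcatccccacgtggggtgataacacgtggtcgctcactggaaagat

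The signal of the members, a value the authors' caller gave to each entry, ran from 2.56 to 363.5 with a median of 44.1 and quartiles of 40.01 and 49.5. Of the 566 members, 503 lay between 30 and 60, 9 lay above 100 and 10 lay under 10. The 18697 candidates that met the same location and repeat limits but had an IDR above 0.1 had a median of 18.8 and reached 71.97; these are called the background below. The IDR follows the ranks of the signal, so this difference comes from the rule. Signals on either side of the limit overlapped. The 5 just inside had IDR values of 0.0996 to 0.0999 and signals of 4.36 to 41.3, and the 5 just outside had IDR values of 0.1001 to 0.1008 and signals of 31.6 to 50.1.

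**Figure D1:**
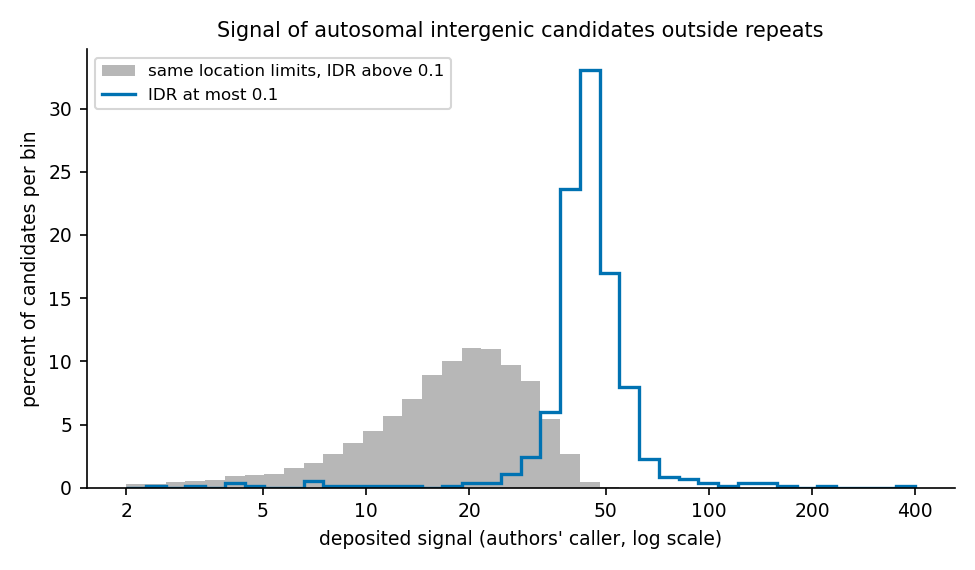
Distribution of the deposited signal (log scale) of the 566 members (line) and of the 18697 background candidates (filled), as percent of each set per bin. Most members lie between 30 and 60, and 10 lie under 10.

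The replicates also have rankings of their own, each made within 1 replicate, so that their entries rest on reads that the joint ranking uses too. An entry overlapped 531 members in the ranking of replicate 1 and 528 in that of replicate 2, and 495 had one in both. In these 495 the median signal was 22.3 in replicate 1 (14.98 to 105.0) and 22.9 in replicate 2 (16.0 to 264.9). The values lay within 1.5-fold of each other in 390 members and over 2-fold apart in 14, and 271 were higher in replicate 2. Across the 495 regions the rank correlation of the replicates was -0.210, in a set already chosen on both, and in the 40 with an IDR of at most 0.01 it was 0.460. Few entries of any kind passed within a replicate. In the ranking of replicate 1, 28 members (4.95%) overlapped an entry at an IDR of at most 0.1, where 0.453% of entries pass. In that of replicate 2 it was 29 members (5.12%), where 0.698% pass. The members were already chosen on the same reads, so these shares describe them and do not test agreement of the replicates. The authors' thresholded list of replicate 1 held 11 members, which are 23.4% of its 47 entries. That of replicate 2 held 12, which are 15.6% of its 77 entries. With lists this short, 7 members were in both and 550 in neither.

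At an IDR of at most 0.01, which 0.312% of all candidates reach, 41 members remained, and their signals ran from 48.9 to 363.5. The authors' conservative list holds 37 of them, or 12.7% of its 291 entries. It leaves out 4 that are past the same limit: the members beside ark-1, oac-58, R05G9.1 and ZC178.2. In the other ranking of the series, where 4.4% of entries have an IDR of at most 0.1, an entry within that limit overlapped 388 of the 566 members (68.6%), which are 7.09% of its 5488 entries past the limit.

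The strongest member lay at IV:12638236-12638471, 7332 bp upstream of ark-1 and 759 bp beyond the 3′ end of C26H9A.3. ark-1 encodes a tyrosine kinase of the ACK family that restrains EGF receptor signalling, and it is known as a gene that LIN-12 signalling raises in vulval precursor cells. The signal was 363.5 in the joint ranking, 105.0 in replicate 1 and 264.9 in replicate 2, with an IDR of 0.00017. Both ATGGGAA sites in the window printed above are copies within a tandem repeat with a period of 96 bp, and the longest word repeated within 250 bp of the summit was 148 bases. Of its 31-base words, 97.1% occur more than once in the genome, up to 6 times, although no base of the window is soft-masked. The gap between the flanking genes held 7 candidates, of which this was the sole one at an IDR of at most 0.1, and the others reached a signal of 29.9. Neither the conservative list nor either replicate's thresholded list holds it.

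The next in signal, at IV:12318991-12319226, was 7412 bp upstream of oac-58, a gene of the acyltransferase-like family, and 8123 bp upstream of F19B6.3. Its signal was 213.5 in the joint ranking, 82.1 in replicate 1 and 131.2 in replicate 2. A word of 100 bases recurs 188 bp apart, and 79.0% of the window's 31-base words occur more than once in the genome, up to 39 times. Here and below, a word said to occur elsewhere can have its other copy in the same local repeat. The member beside R05G9.1 (II:6507233-6507468; signal 78.4 joint, 36.0 and 41.3 in replicates 1 and 2) had a repeated word of 161 bases and 67.3% of its words elsewhere. The member beside ZC178.2 and the glutamate receptor gene glr-5 (V:8714062-8714297; signal 64.0 joint, 28.3 in replicate 1 and no overlapping entry in replicate 2) had a repeated word of 77 bases and 45.6% of its words elsewhere. All 4 members past an IDR of 0.01 that the conservative list leaves out thus held local repeats and multicopy sequence. These measures overlap, because the copies of a local repeat also count as multicopy words. The part of repeated sequence in their signal was not tested. The conservative list also keeps members with multicopy windows, such as those beside clec-72 (78.4% of words elsewhere) and at IV:4725487-4725722 (73.7%). Members it keeps between T04C4.3 and fnip-2 and beside H37A05.4 had shorter repeated words, of 35 and 44 bases, recurring 2 and 32 bp apart. Of the 31-base words in these windows, 0.0% and 11.7% occur more than once in the genome.

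**Figure D2:**
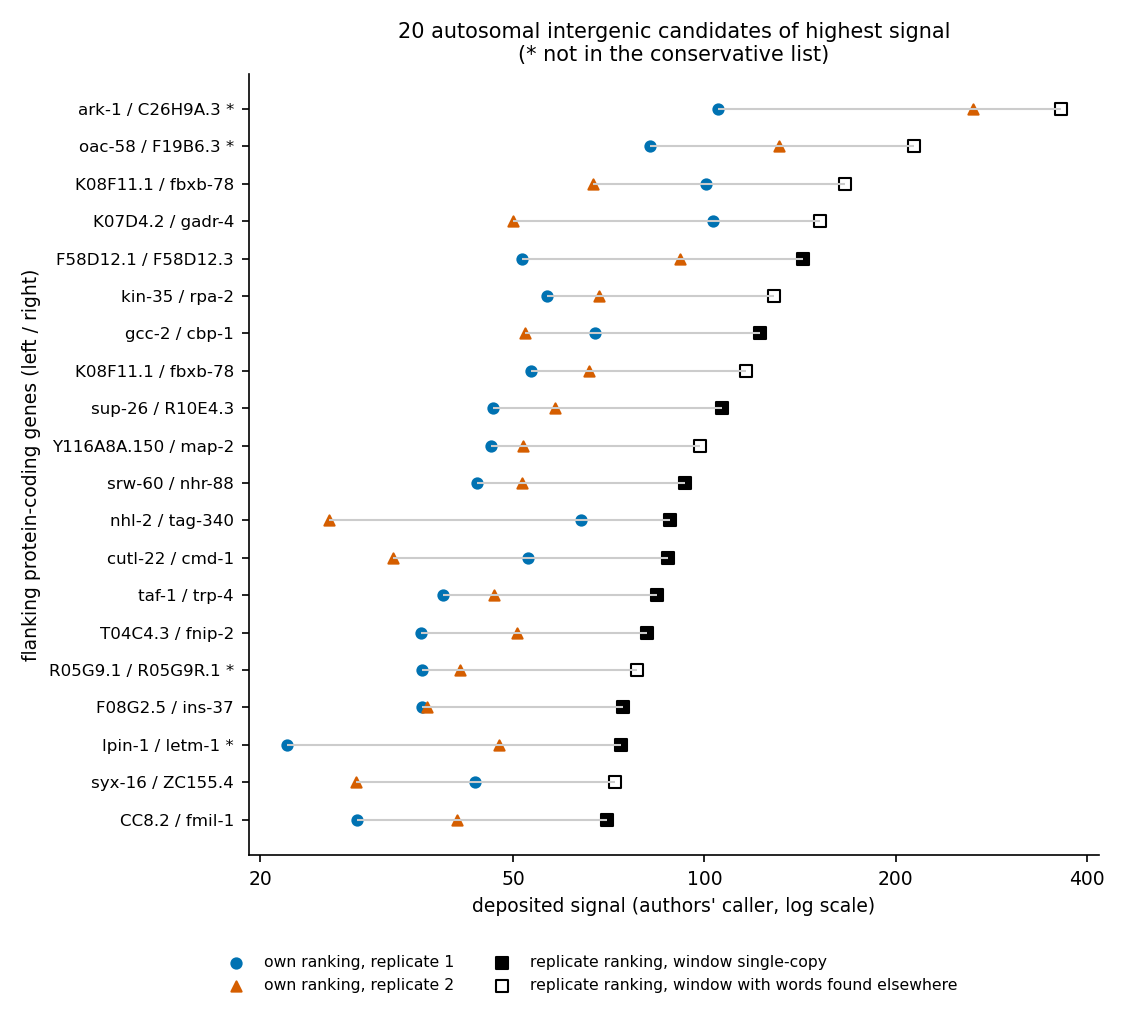
Deposited signal (log scale) of the 20 members of highest signal, with the joint ranking as squares and the own rankings of replicate 1 (circles) and replicate 2 (triangles). Open squares mark the 9 windows in which at least 1 word of 31 bases occurs more than once in the genome, and the strongest are among them.

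The group of 7 alike members included those ranked 3, 4, 6 and 10 by signal. The member 292 bp beyond the 3′ end of K08F11.1, at IV:4725487-4725722, had a signal of 166.7, with 100.6 in replicate 1 and 66.8 in replicate 2. The member 2578 bp upstream of K07D4.2, at II:4047956-4048191, had 152.1, with 103.1 and 49.97. The member next to rpa-2, a gene for an RPA subunit that coats single-stranded DNA, lay 639 bp upstream of it and had 128.8, with 56.5 and 68.2. The member 2696 bp beyond the 3′ end of map-2, a methionine aminopeptidase gene, had 98.4, with 46.1 and 51.9. Replicate 1 was higher at the first pair and replicate 2 at the other pair. The remaining members of the group had signals of 50.8 (ari-1.4), 47.3 (327 bp from zip-11) and 42.8 (326 bp from C46C2.7, in the gap that ends at the kinase gene wnk-1).

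Between members of this group, aligned stretches of 101 to 167 bp were 73.8% to 100% identical in the 20 pairs found. The members beside K08F11.1 and rpa-2 were 98.03% identical to each other. Their pairs with the other members were 73.8% to 77.2% identical, and pairs among those others 96.8% to 100%. None of the 7 windows held a LAG-1 site. Soft-masking covered 0% to 21.4% of each window, so the repeat limit did not remove them. The sequence occurs at 26 places in the genome with at least 70% identity over 100 bp or more. At 21 of these the ranking holds a candidate, with highest signals of 5.62 to 166.7 and a median of 35.7, and at 5 it holds none. Of the 19 places that are no members, 14 had a candidate, with a median of 29.9, and 3 reached an IDR of at most 0.1, 1 of them with a signal of 163.0. Copies that were more than 96% identical to a member thus spanned signals from 23.2 to 166.7, and some copies had no candidate.

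A smaller group of 3 alike members lay 1188 bp upstream of the ferritin gene ftn-1 (67.7 joint, 28.7 in replicate 1 and 35.03 in replicate 2), 1574 bp upstream of ent-3, a nucleoside transporter gene (56.3, with 25.5 and 34.0), and 293 bp from F57A10.2 (51.9, with 37.4 and 16.5). They were 90.8% to 94.8% identical over 119 to 195 bp, and their sequence occurs at 23 places, of which 20 had a candidate and 4 a candidate at an IDR of at most 0.1. In all, 18 members fell into 6 groups of alike members, and 5 of the 10 members of highest signal were in one.

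**Figure D3:**
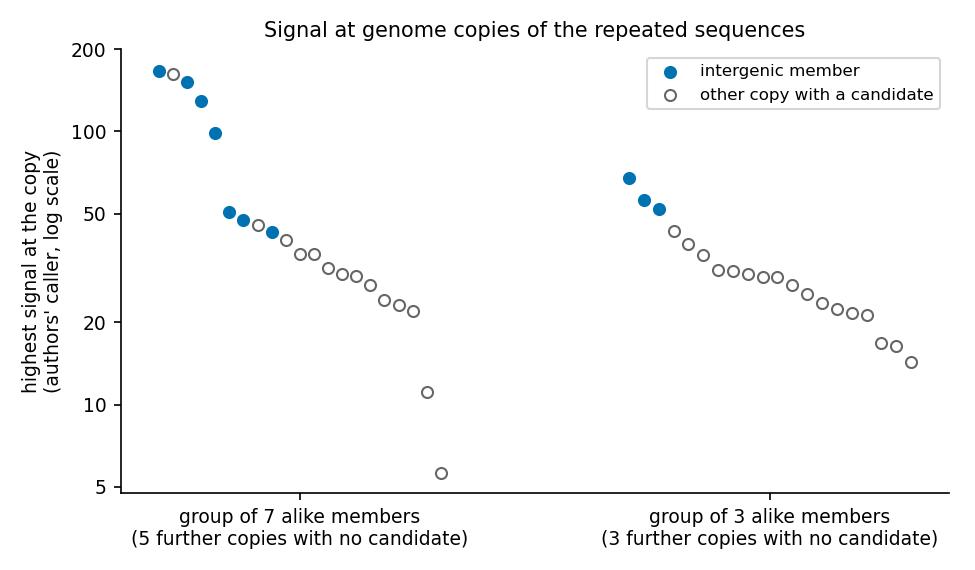
Highest signal of any candidate (log scale) at each genome copy of the sequences shared by the 7 and by the 3 alike members, ordered by signal within a group. Filled points are members and open points are other copies, which reach 163.0 in the larger group and 43.4 in the smaller.

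Over all members, 22.1% of windows held a 31-base word found more than once in the genome (125 of 566, 95% Wilson interval 18.9% to 25.7%), against 18.7% of the background. Over 50% of the words occurred elsewhere in 9 of the 41 members with an IDR of at most 0.01 (22.0%, 12% to 36.7%), in 3.81% of the other 525 (2.48% to 5.81%) and in 5.72% of the background. A word of 31 or more bases repeated within 250 bp of the summit occurred in 14.6% of the 41 (6.88% to 28.4%), 3.05% of the 525 and 1.70% of the background. How reads that match several places were treated is not stated in the sources used here. The part of multicopy sequence in the ranking was not tested. The 441 members whose windows had no word elsewhere had a median signal of 43.8 and reached 142.9.

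The strongest of these single-copy members lay at V:14055141-14055376, between F58D12.1 and F58D12.3, with a signal of 142.9 (51.7 in replicate 1 and 91.6 in replicate 2). The next, at III:9765499-9765734, lay 892 bp upstream of cbp-1 and 3474 bp upstream of gcc-2, with 122.1 (67.4 and 52.3). cbp-1 encodes the CBP/p300 histone acetyltransferase, a coactivator in the Notch pathway and in many others. A member 1950 bp upstream of sup-26, an RNA-binding protein gene of sex determination, had 106.4 (46.5 and 58.1). A member 2581 bp upstream of the nuclear receptor gene nhr-88 had 93.2 (43.8 and 51.6). One between nhl-2, a TRIM-NHL cofactor of microRNAs, and tag-340 had 88.4, and its replicates differed by over 2-fold (63.9 and 25.7). One 4790 bp upstream of the calmodulin gene cmd-1 had 87.6 (52.8 and 32.3), and one 3807 bp upstream of the mechanosensory channel gene trp-4 had 84.2 (38.7 and 46.7). The gap between taf-1 and trp-4 held a further member with a signal of 60.3. Of the 20 members of highest signal, 6 were higher in replicate 1.

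The other named members of the top 20 were 116.3 at IV:4727920-4728155, also between K08F11.1 and fbxb-78 (53.4 in replicate 1 and 65.9 in replicate 2), 81.2 between T04C4.3 and fnip-2, 74.4 beside the insulin-like gene ins-37 (35.9 and 36.6), 72.2 beside the syntaxin gene syx-16 (43.6 and 28.3) and 70.2 between CC8.2 and fmil-1 (28.4 and 40.9). The member between the lipin gene lpin-1 and letm-1 had 73.9, with 22.1 in replicate 1 and 47.5 in replicate 2, and missed the stricter limit with an IDR of 0.0116.

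At the other end, 10 members had signals of 2.56 to 8.76. In 6 of them an entry was found in both own rankings, with higher values there: the member 1340 bp upstream of dmd-3, a male development gene of the DM domain family, had 3.00 in the joint ranking, 17.4 in replicate 1 and 22.2 in replicate 2. Another lay 704 bp upstream of nhr-67 (4.57 joint and 22.8 in replicate 2). The dmd-3 member overlapped a stronger member at V:19656255-19656490 (signal 48.7) with the same IDR of 0.0989 and the same replicate values. A member at IV:4720758-4720993 (4.39) likewise had the IDR of 0.0375 and the replicate values of an overlapping member with 45.4. A replicate value is that of the strongest overlapping entry, so it can belong to such a neighbour. In the 10 members low joint signals stood beside IDR values within the limit, and the cause was not tested.

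Windows of 40 of the 566 members held a LAG-1 site (7.07%, Wilson interval 5.23% to 9.48%), as did 6.95% of the background (1299 of 18697). The share was 4.88% in the 41 members with an IDR of at most 0.01 (2 of 41, 1.35% to 16.1%), and the 2 were the repeat-borne pairs beside ark-1 and R05G9.1 printed above. The share in the background at the members' mix of GC content was 6.94%. Members with and without a site had median signals of 44.9 (n = 40) and 44.1 (n = 526). Promoter candidates chosen by the same IDR and repeat limits held a site in 7.66% (37 of 483) and gene body candidates in 6.81% (111 of 1629), both inside the members' interval. Intergenic candidates in repeats held one in 11.9% (27 of 227, 8.31% to 16.8%), above the members' interval, although the intervals of both sets overlap. Between members and background no difference in site share was detectable at this number of regions.

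Pairs of sites were rarer. They occurred in 5 members (0.883%, 0.378% to 2.05%) and in 0.390% of the background. Beside those at ark-1 and R05G9.1, one lay at IV:6661032-6661267, 713 bp from C01B10.11 and 54 bp from Y73B6A.1, with a signal of 47.3 (26.1 in replicate 1 and 20.2 in replicate 2). One at IV:6088857-6089092, 5375 bp upstream of ugt-20, a UDP-glucuronosyltransferase gene, had 41.2 (18.9 and 23.9) and lay in a pseudogene. Among the 441 single-copy members 3 held a pair (0.680%), against 0.355% of single-copy background.

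The member with 1 site and the highest signal was that beside lpin-1. Other members with 1 site included one 520 bp from T27E4.7 in a gap that ends at the heat shock gene hsp-16.1 (55.1), one 4192 bp from the Frizzled gene cfz-2 (52.1) and one beside the Dishevelled gene dsh-2 (40.1). A pair of members with a site each shared the gap between W09D10.4 and tat-3, with signals of 58.4 and 49.6.

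The GC content of member windows had a median of 43.3%, against 37.3% in the background, and 48.8% among the 41 with an IDR of at most 0.01. GAGAGA, the core of elements bound by GAGA-type factors in flies, occurred in 23.9% of members (135 of 566, 20.5% to 27.5%) and 14.7% of the background. At the members' mix of GC content the background share was 18.9%, still below the members' interval. The direction differed between GC bins. Members were lower than the background under 35% GC (4.5% against 8.3%) and at 40% to 45% (18.1% against 19.5%). They were higher at 35% to 40% (23.2% against 14.9%), 45% to 50% (34.4% against 24.5%) and from 50% (34.0% against 22.6%). In the 41 members with an IDR of at most 0.01 the share was 41.5% (27.8% to 56.6%). Among single-copy windows it was 27.4% of members (23.5% to 31.8%) and 15.5% of the background. The shares in the 41 and in single-copy windows were not matched on GC content. 3 or more copies occurred in 5.12% of members (29 of 566) and 1.71% of the background. The windows printed above beside nhr-88 (signal 93.2), fnip-2 (81.2) and mak-1 (61.7) held 6 each, the member beside the chromatin remodeller gene chd-7 (63.6) held 10 and that beside unc-63 (55.9) held 9. The most was 30 copies, between sptf-3 and C01A2.9, at a member with a signal of 42.8. Overlapping copies count separately. Members with and without GAGAGA had median signals of 44.1 each. Promoter candidates held it in 24.8%, inside the members' interval. Gene body candidates held it in 14.1% (12.5% to 15.9%) and intergenic candidates in repeats in 6.61% (4.05% to 10.6%), both below it, and these shares were not matched on GC content.

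For GATAA and GGGCGG the background came close to the members once it was weighted to their GC content. GATAA, the core of GATA factor elements, occurred in 31.8% of members and 37.6% of the background, or 31.7% at the members' GC mix. GGGCGG occurred in 7.07% and 4.32%, or 7.13% at that mix. The remaining words were not matched on GC content. CANNTG, the E-box of bHLH proteins, occurred in 58.8% and 57.2%. TGTTTAC of forkhead factors occurred in 3.53% and 2.74%, TGACTCA or TGAGTCA of AP-1 in 1.94% and 2.38%, and GCGCAGGG, a word of dosage compensation elements on the X chromosome, in 0.177% and 0.107%. All were searched on both strands.

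The members lay at a median of 2003 bp from the nearest protein-coding 5′ end, with quartiles of 1021 and 3402 bp and a highest value of 12078 bp. The background median was 2157 bp. Since the rule keeps promoters out, values below 500 bp are nearly absent in both sets. A 5′ end lay within 1000 bp in 24.4% of members (138 of 566, 21.0% to 28.1%) and 18.9% of the background, and over 5000 bp away in 11.7% (9.27% to 14.6%) and 15.1%. The nearest 3′ end was at a median of 2579 bp, against 2570 bp. Across members the rank correlation of signal with distance to the nearest 5′ end was -0.0243 (n = 566).

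**Figure D4:**
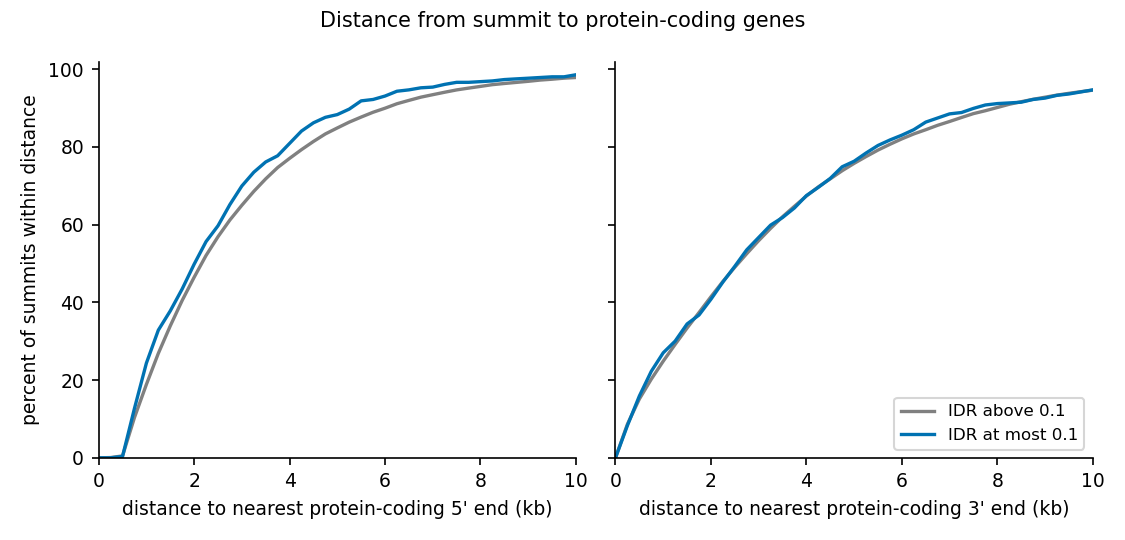
Percent of summits within a given distance (kb) of the nearest protein-coding 5′ end (left) and 3′ end (right), for members and background. At 1 kb from a 5′ end the curves stand at 24.4% and 18.9%, and those for 3′ ends nearly coincide.

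The gap between the flanking genes had a median of 5632 bp in members and 6092 bp in the background. Flanking genes diverged, so that both have their 5′ ends towards the summit, in 32.5% of members (28.8% to 36.5%) against 30.7%. They pointed the same way in 54.8% against 55.4% and converged in 12.7% against 13.9%. All 3 background shares lay inside the members' intervals. The autosomes I, II, III, IV and V held 83, 110, 69, 129 and 175 members. These were 14.66%, 19.43%, 12.19%, 22.79% and 30.92% of members, against 13.72%, 20.01%, 13.86%, 21.01% and 31.4% of the background. Each of these background shares lay inside the members' interval. The outer parts of a chromosome, 33.3% of its length at each end, held 69.8% of members (65.9% to 73.4%) and 65.3% of the background. Members were scattered: the median distance to the next was 42762.5 bp, 63 had another within 2000 bp and 22 overlapped another.

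Intergenic here means outside protein-coding genes, and 105 summits (18.6%, 15.6% to 22.0%) lay in another annotated gene, against 18.4% of the background. Genes of noncoding RNA (ncRNA, lincRNA or antisense RNA) held 40 members (7.07%, 5.23% to 9.48%) and 2.96% of the background, and 8 of the 41 with an IDR of at most 0.01 (19.5%, 10.2% to 34.0%). Pseudogenes held 64 (11.3%, 8.95% to 14.2%) against 15.2%. Among single-copy windows the noncoding RNA shares were 8.16% and 3.26%. Median signal was 47.1 in the 40, 42.2 in pseudogene members and 44.2 in the 461 members in no annotated gene.

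The strongest of the noncoding RNA members were F26F4.14 beside nhl-2 (88.4), linc-128 beside cmd-1 (87.6), F08G2.13 beside ins-37 (74.4), srpr-2.1 beside syx-16 (72.2), Y37A1B.330 beside irld-55 (70.1), K10H10.14 between cysl-2 and dhs-8 (70.1) and linc-91 beside chd-7 (63.6). Those with lower signal, named after their values were seen, included C02F4.12, an antisense RNA beside the calcineurin gene tax-6 (58.0), T05A6.19 between the CDK inhibitor genes cki-1 and cki-2 (46.4) and T04C12.15 between the actin genes act-3 and act-2 (50.02). A single member lay in a microRNA gene, cel-mir-5548 (48.4).

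**Figure D5:**
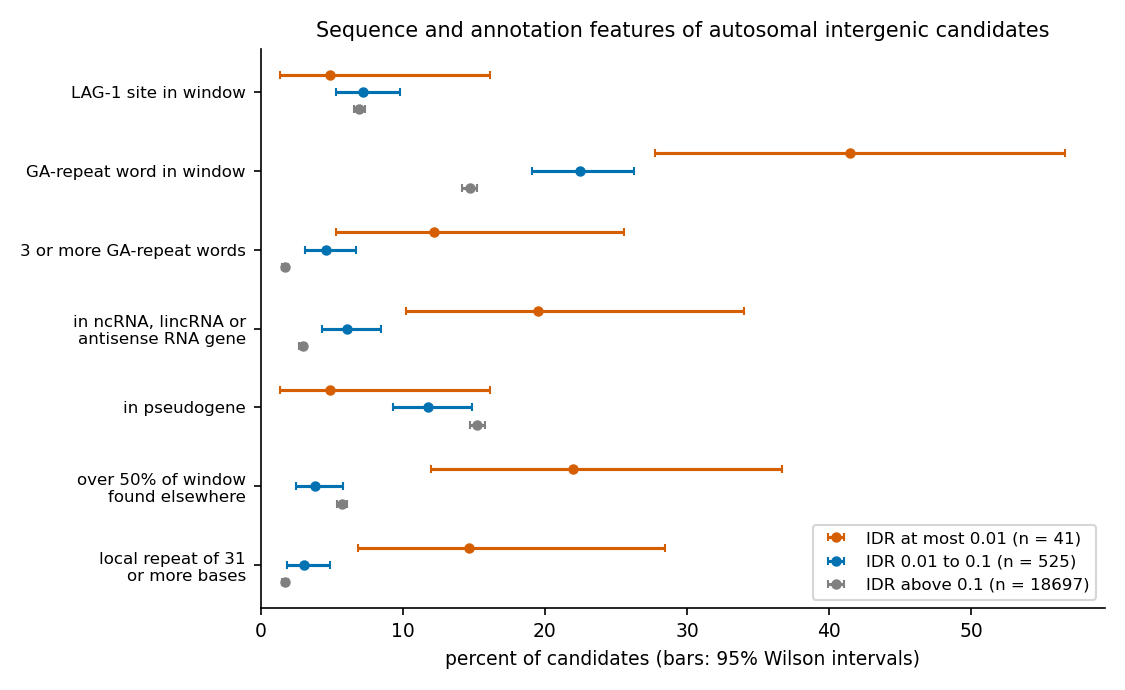
Share of candidates (percent, bars are 95% Wilson intervals) with each sequence or annotation feature among the 41 members with an IDR of at most 0.01, the other 525 members and the 18697 background candidates. The intervals of the 41 and of the background do not overlap for the GA-repeat word, noncoding RNA genes, multicopy sequence and local repeats, and they overlap for the LAG-1 site and pseudogenes. No share shown is matched on GC content.

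The 566 members had 994 distinct flanking protein-coding genes. Of 24 autosomal genes on a list of the Notch pathway, 3 flanked a member: the coactivator gene cbp-1, the receptor gene lin-12 and the ligand-like gene dsl-3. The window of the member beside cbp-1, described above, held no LAG-1 site. The member beside lin-12 lay at III:9071981-9072216, 627 bp upstream, with a signal of 39.3 (18.5 in replicate 1 and 25.7 in replicate 2), an IDR of 0.065 and no LAG-1 site. The member 242 bp beyond the 3′ end of dsl-3 had 51.1 (20.4 and 29.8), an IDR of 0.0313 and no site. This region also lay 726 bp upstream of nhr-122, and 47.3% of its window was soft-masked. Of 11 listed target genes on autosomes, ark-1 and ref-1 flanked a member. The member 3831 bp upstream of ref-1, which encodes a bHLH repressor that Notch signalling activates in the embryo, had 37.8 (21.3 and 18.9), an IDR of 0.0918 and 1 LAG-1 site. Members beside a pathway gene made up 0.530% of the 566 (0.180% to 1.55%), against 0.2995% of the background, and those beside a target gene 0.353% (0.0970% to 1.28%), against 0.2995%. The pathway genes sel-8, glp-1 and lag-1 flanked none.

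For gene families, shares of members are given beside those of the background. Nuclear hormone receptors flanked 22 members (3.89%, 2.58% to 5.82%) against 4.001%. The strongest were beside nhr-88, nhr-181 (57.1) and nhr-122 (51.1), the last being the member also beside dsl-3. Chemoreceptors of the sr families flanked 50 (8.83%, 6.77% to 11.5%) against 11.5%, F-box genes 10 (1.77%, 0.963% to 3.22%) against 3.03%, C-type lectins 13 (2.30%, 1.35% to 3.89%) against 1.81%, MATH and BTB genes 8 (1.41%) against 0.979%, collagens 6 (1.06%) against 1.10%, and neuropeptide and insulin genes 6 (1.06%, 0.487% to 2.29%) against 1.96%. The others flanked 1 to 4 members each. Shares were 0.707% against 0.407% for ribosomal protein, 0.707% against 0.396% for UDP-glucuronosyltransferase and 0.530% against 0.332% for major sperm protein genes. They were 0.530% against 0.888% for homeobox, 0.177% against 0.497% for bHLH and 0.177% against 0.524% for cytochrome P450 genes. Histone genes had 0.177% against 0.182%, and zinc finger and T-box genes 0.707% against 0.749%. Each of these background shares lay inside the members' interval. Genes beside these members included rps-6 (58.8), a ribosomal protein gene, ceh-79 (48.8), a homeobox gene, and his-61 (49.2), a histone gene. They also included msp-81 (46.6) and the T-box pair tbx-8 and tbx-9, whose gap held 2 members (45.03 and 43.1).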

How the data were processed

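LAG-1 ChIP-seq peak lists of 1 group with 2 replicates were used as deposited by the authors. The deposited signal is the caller's strength per entry, in a unit no header names. The deposited −log10 values of the rankings give the global IDR of each entry, and the deposited score is a whole number that follows it. Aligner and caller: not given in the sources used here. Read depth is unknown. The own lists of each replicate share reads with the joint lists, and the columns that split the joint ranking by list were not assigned to a replicate.

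Sequence came from WBcel235 (ce11) and genes from Ensembl release 115. Lists were compared by overlap of at least 1 bp. Shares carry Wilson intervals at 95%, which cover counting error only and treat regions as independent, although some overlap or are copies. No test was made. Words of 31 bases were counted in the genome on both strands, and a further copy inside the same window counts too. Windows were aligned with BLAST+ 2.17.0 (blastn, E-value at most 1e-05, alignments of at least 100 bp and 70% identity, over 1000 bp apart). These measures were added after seeing the data. Background shares at the members' GC content weight GC bins split at 35%, 40%, 45% and 50%. Named genes were those flanking the 20 members of highest signal, members with 2 or more sites, Notch genes, up to 3 genes per family and the 5 members on each side of the limit; others were chosen after seeing values. Of the members with 2 or more sites, 1 is not reported here. The members and the gene lists were chosen with earlier results of these data known. The motif search, repeat search and location rule were tested on simulated sequences and by direct search. Scripts ran in Python 3.11.15 with pandas 2.3.3, NumPy 2.4.6 and SciPy 1.17.1; plots were drawn with matplotlib 3.10.9. Alternatives were other IDR limits, the other ranking, a promoter of 1000 bp, other repeat limits, merged overlaps, single replicates, other windows and single-copy windows.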

Additional observations from a re-analysis of the deposited data

How the results depend on the processing

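Of 66 alternative values, 35 stayed within the interval of the reported value, or within 1.5 times for counts, and 31 did not. With an IDR of at most 0.05 there were 213 members, with a median signal of 50.7 and 15.5% of summits in a noncoding gene or pseudogene. With an IDR of at most 0.01 there were 41, with a median signal of 70.1, a median distance of 2581 bp to a 5′ end, a LAG-1 site in 4.88% and 24.4% in a noncoding gene or pseudogene. The other ranking gave a median signal of 42.5, and a promoter of 1000 bp a median distance of 2569.5 bp. Without the repeat limit the median signal was 45.4 and the noncoding or pseudogene share 14.9%. With no soft-masked base 122 members were left, with 27.1% in a noncoding gene or pseudogene. Windows of 50 bp on each side held a LAG-1 site in 3.71% of members and windows of 250 bp in 16.96%, and GTGGGAA alone within 100 bp in 3.53%. With genes of every biotype as neighbours, 26.2% of members had divergent neighbours. Merging overlaps and single-copy windows (chosen after seeing the data) moved none of these results beyond its interval.

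Without either replicate, the rule applied to the other's own ranking gave 30 to 40 members, with a median signal of 37.4 to 42.4, a median distance of 2046.5 to 2587.5 bp, a LAG-1 site in 10% to 12.5%, and 13.3% to 17.5% in a noncoding gene or pseudogene. GAGAGA was in 18.9% to 41.5% of members over its alternatives. No paired analysis was possible because the series has 1 group. The limits are the unknown depth, the lack of an untagged control group among the samples, and the unnamed treatment of reads that match several places.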
